A study of Mus musculus with 155 samples.

Results

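The genes that write, maintain and oxidize DNA methylation were followed in mouse embryonic stem cells (ESCs) and their differentiated progeny. The set holds 3 catalytic DNA methyltransferases (Dnmt1, Dnmt3a and Dnmt3b), the catalytically inactive cofactor Dnmt3l, the Dnmt1 partner Uhrf1 and the 3 dioxygenases Tet1, Tet2 and Tet3. They were chosen by name, and all 8 were found by Ensembl identifier among the 55471 genes of the count tables. Dnmt3b, Uhrf1, Tet1 and Tet2 were lower in retinoic acid (RA)-treated cells and oligodendrocyte progenitor cells (OPCs) than in ESCs, Tet3 was higher in both, and Dnmt3a was higher in OPCs. In OPCs that expressed H3.3K27M, Dnmt1, Uhrf1, Tet1 and Dnmt3b were higher than in OPCs with WT-H3.3, together with dividing-cell genes and with other differences in cell type markers.

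DNA methylation in mammals is set on cytosines followed by guanine (CpG). DNMT3A and DNMT3B set new methylation, and DNMT3L, which has no catalytic activity of its own, stimulates them and is known from germ cells and pluripotent cells. DNMT1 copies the pattern onto the new strand at replication, where UHRF1 recognizes the hemimethylated site and recruits it. TET enzymes oxidize methylated cytosine, after which the mark is diluted by replication or removed by base excision repair. ESCs are known to express Tet1, Tet2, Dnmt3b and Dnmt3l, and Tet3 is better known from oocytes and from neural cells. The transcripts alone do not give the methylation of the DNA, which was not measured in these libraries.

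All libraries came from KH2 mouse ESCs, in which a single doxycycline (Dox)-inducible copy of SNAP-HA-tagged histone H3.3 had been placed by Flp recombination, in the wild-type form (WT-H3.3) or carrying K27M or K27L (H3.3K27M, H3.3K27L). K27M, the substitution found in diffuse midline glioma, inhibits PRC2, the complex that methylates lysine 27 of H3, and the study used K27L as a substitution without that dominant-negative effect. ESCs were kept with LIF in medium with serum and 2i inhibitors, and groups of 8 libraries, 2 replicates at each of 4, 8, 24 and 72 h of Dox, were available for each of the 3 lines and for WT-H3.3 with GSK343, an inhibitor of the PRC2 methyltransferase. RA-treated cells were grown with RA and without LIF and 2i (labelled neural progenitors, 1 library for each of the 3 lines at 24 and at 72 h of Dox). OPCs were made through embryoid bodies (WT-H3.3 and H3.3K27M, 1 library each at 24 and 72 h of Dox). The embryoid bodies were also given RA, together with purmorphamine, before their cells were plated in OPC medium. Equal hours of Dox are therefore not equal times of differentiation, and both differentiated states had been exposed to RA. Every library had Dox, so no library shows the cells without the transgene, and the lines were derived from selected colonies, with the endogenous H3.3 genes intact and, per the methods, a potential duplication of chromosome 8 in all clones. None of the 8 members lies on chromosome 8. H3f3a and H3f3b, on which reads of the tagged copy could be counted, ranged from 26.4 to 192 and from 352 to 1696 CPM (counts scaled to library size by TMM) over all libraries, and the transgene and the endogenous genes cannot be told apart there.

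Total counts per library ranged from 68378 to 21161392 in ESCs, from 2239137 to 22269533 in RA-treated cells and from 7499258 to 12387113 in OPCs. The lowest is replicate 2 of H3.3K27L ESCs at 72 h, in which Dnmt3a had 3 counts and Tet3 had 0, whereas in the other 41 libraries 7 of the 8 members had at least 5 counts each, and Dnmt3l fell to 0 in OPCs. The labels name a pair of kits, a 3′ tag kit and a full-length mRNA kit, without saying which was used for each library. The pluripotency factor Pou5f1 was between 352 and 954 CPM in the ESCs and at most 5.26 CPM in all differentiated libraries. The RA-treated cells, labelled neural progenitors, held 5 of 5 extraembryonic endoderm markers above ESCs at 72 h (Gata4, Gata6, Sox17 and 2 others, summed levels of 461 to 1364 CPM against at most 17.0 CPM in ESCs). The 4 of 5 listed neural progenitor markers in the table summed to 275 to 673 CPM at 72 h, against 60.8 to 132 CPM in ESCs. Sox11 held most of that sum (234 to 574 CPM), Nes was at 19.3 to 61.3 CPM (27.4 to 99.2 CPM in ESCs), and Hes5 was at most 0.93 CPM. At 24 h Nes was at 132 to 401 CPM. Of these 4 markers, 3 were called higher than in ESCs and 0 lower at 24 h. At 72 h 3 were called higher too, and 1 was lower at an adjusted p under 0.05 but by less than 2-fold. In OPCs, Olig1 and Olig2 were high (at least 158 and 281 CPM), while Sox10 was at or below 3.45 CPM. The 5 OPC markers summed to 488 to 527 CPM with WT-H3.3 and 1712 to 1875 CPM with H3.3K27M. Neuron markers (5 listed) summed to 753 to 782 and 1690 to 1803 CPM there, against 238 to 702 CPM in ESCs. Of 4 neuron markers tested, 3 were called higher in OPCs than in ESCs and 1 lower. Fewer cells of a type and less RNA per cell cannot be told apart in such bulk samples.

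The members lie on 7 chromosomes of the NCBIM37 (mm9) assembly. Dnmt1 is at chr9:20711650-20757317 (minus strand), Dnmt3a at chr12:3806007-3914443 (plus), Dnmt3b at chr2:153475186-153513466 (plus), Dnmt3l at chr10:77504692-77526367 (plus) and Uhrf1 at chr17:56442744-56462909 (plus). Tet1 is at chr10:62267318-62361866, Tet2 at chr3:133126643-133207354 and Tet3 at chr6:83312367-83391672 (all minus).

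The stretches before the start sites of the members differ in their CpG content, and 4 are printed because their genes carry the main patterns reported here. Dnmt1 and Uhrf1 were higher in H3.3K27M OPCs, Dnmt3l was at most 1.99 CPM in OPCs, and Tet3 rose on differentiation. Each is the 250 bases before the RefSeq start (GRCm38.p6, the start with the most CpG where a gene has several), in the direction of transcription, 5′ to 3′, for Dnmt1 chr9:20952624-20952873 (minus strand), for Uhrf1 chr17:56304063-56304312 (plus), for Dnmt3l chr10:78042037-78042286 (plus) and for Tet3 chr6:83441679-83441928 (minus). Capitals mark a match to TTTCCCGC, TTTGGCGC, TTTCGCGC or TTTGCCGC, versions of the E2F motif. E2F factors act on genes of DNA replication.
Dnmt1: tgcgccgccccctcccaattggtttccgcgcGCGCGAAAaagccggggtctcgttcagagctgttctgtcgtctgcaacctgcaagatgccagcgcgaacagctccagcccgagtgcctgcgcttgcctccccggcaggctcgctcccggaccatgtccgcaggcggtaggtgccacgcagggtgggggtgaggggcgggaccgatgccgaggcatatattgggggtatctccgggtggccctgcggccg
Uhrf1: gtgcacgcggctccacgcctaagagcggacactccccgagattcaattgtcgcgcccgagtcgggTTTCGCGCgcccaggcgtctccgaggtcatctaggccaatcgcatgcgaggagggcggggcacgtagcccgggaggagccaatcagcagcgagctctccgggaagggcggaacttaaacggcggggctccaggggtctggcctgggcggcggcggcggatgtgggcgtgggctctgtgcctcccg
Dnmt3l: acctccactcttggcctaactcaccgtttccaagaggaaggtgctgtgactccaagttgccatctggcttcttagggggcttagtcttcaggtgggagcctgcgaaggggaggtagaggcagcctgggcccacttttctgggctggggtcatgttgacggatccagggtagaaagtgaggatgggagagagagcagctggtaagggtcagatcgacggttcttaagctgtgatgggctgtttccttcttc
Tet3: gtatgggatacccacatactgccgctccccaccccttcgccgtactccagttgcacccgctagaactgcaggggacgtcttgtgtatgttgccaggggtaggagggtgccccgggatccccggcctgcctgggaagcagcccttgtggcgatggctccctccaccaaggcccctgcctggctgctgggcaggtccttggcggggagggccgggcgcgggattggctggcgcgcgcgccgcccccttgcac

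The windows of Dnmt1 and Uhrf1 each held 1 such match, on the minus strand of the gene 219 bases before the start in Dnmt1 and on the plus strand 185 bases before the start in Uhrf1, and those of the other 6 members held none. Among the 32841 promoter windows of the same length, searched on both strands, 1.86% held a match. Dnmt3l had the fewest CpG of the members, 5 in its window against a median of 6 over all windows, where Dnmt1 had 26, Uhrf1 had 30, Tet3 had 17, Tet1 had 15, Dnmt3b had 21, Dnmt3a had 40 and Tet2 had 51. The windows were picked for their CpG and the share and the median cover all windows, so they are not like for like. The other 2 starts of Dnmt1 and the other start of Uhrf1 held no match. These are matches of letters and not sites of binding.

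**Figure D1:**
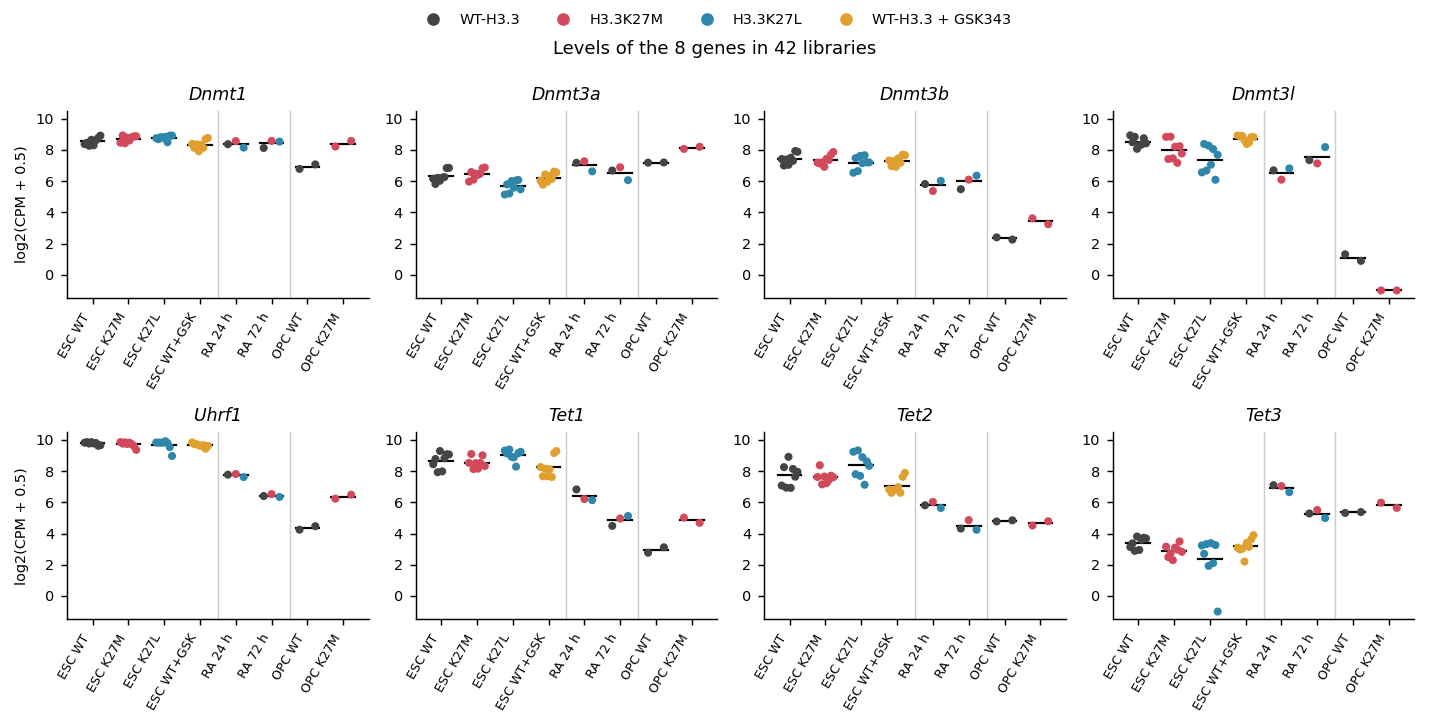
Each panel shows 1 gene, with 1 point per library, the level as log2(CPM + 0.5) on the y axis, the groups on the x axis, colours for the line or treatment and black bars for the mean of a group. Dnmt3b, Uhrf1, Tet1 and Tet2 step down from the ESC groups to the RA-treated cells, Tet3 steps up, and in OPCs the H3.3K27M points of Dnmt1, Uhrf1 and Tet1 lie above those of WT-H3.3.

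The differences between cell states were tested over 22 libraries at 24 and 72 h of Dox, without GSK343, with edgeR, which gave an adjusted p over 15923 genes. Calls needed both an adjusted p under 0.05 and a change of more than 2-fold. At 24 h, 6 of 8 members were called between RA-treated cells and ESCs (5 lower, 1 higher), where 42.1% of all genes were called (23.3% higher, 18.8% lower). At 72 h 5 members were called (4 lower, 1 higher) against 57.1% of all genes (26.5% higher, 30.6% lower). Between OPCs and ESCs 8 of 8 were called (6 lower, 2 higher, with Dnmt3l at 0 counts in 2 of the 4 OPC libraries) against 67.2% of all genes (31.1% higher, 36.1% lower). From 24 to 72 h in RA-treated cells 4 members were called, all lower, where 38.7% of all genes were called (14.1% higher, 24.6% lower). Between OPCs and RA-treated cells at 72 h 2 members were called, both lower, where 27.3% of all genes were called (13.6% higher, 13.7% lower). The states were grown, and may have been prepared, apart from each other, so state and preparation cannot be told apart. The fit gave a line the same effect in every state, although that of H3.3K27M differed between OPCs and ESCs for several members, as tested below. Dividing-cell markers moved in the same comparisons. Of 8 such genes, 5 were called lower and none higher in RA-treated cells than in ESCs at 24 h (median log2 change -1.12), 3 lower and 1 higher at 72 h (-0.88), and 6 lower and none higher in OPCs (-1.95). From 24 to 72 h in RA-treated cells 1 was called higher and 1 lower (0.24), and their part in the members' values was not tested. Times are hours of Dox, which was added after RA treatment had begun, and the study pooled both times of RA-treated cells.

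The scaling matters for these state comparisons. Under the TMM scaling used here the median log2 change of all genes was 0.01 (RA against ESC, 24 h), -0.16 (72 h), -0.32 (RA, 72 against 24 h), -0.15 (OPC against ESC) and 0.01 (OPC against RA), and median-ratio (RLE) scaling shifted these by 0.11, 0.41, 0.27, 0.38 and -0.02. Values relative to the median of all genes are therefore given beside the log2 changes below. The change also depended on transcript length. In RA-treated cells at 72 against 24 h the median log2 change was 0.22 in the shortest tertile of genes and -0.69 in the longest, which held 6 of the 8 members (all but Dnmt3l and Uhrf1). RA against ESC gave -0.41 and 0.37 at 24 h and 0.17 and -0.36 at 72 h, and OPC against ESC gave -0.06 and -0.11. The part of length, or of the kit, in the members' values was not tested.

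Uhrf1 was lower in each differentiated state than in ESCs and fell further between 24 and 72 h of Dox in RA-treated cells. The 12 ESC libraries ranged from 499 to 965 CPM (median 827). RA-treated cells at 24 h held 218 (WT-H3.3), 224 (H3.3K27M) and 196 CPM (H3.3K27L), and at 72 h 84.1, 91.7 and 80.7 CPM in the same order, which is kept for all members below. OPCs held 18.4 and 21.7 CPM with WT-H3.3 and 74.6 and 89.4 CPM with H3.3K27M. The 3 lines of RA-treated cells lie close together at each time, and all differentiated libraries lie below all ESC libraries. The log2 change from ESCs was -2.10 ± 0.33 (SE) at 24 h (edgeR adjusted p = 1.23e-05, -2.12 relative to the median), -3.06 ± 0.35 at 72 h (adjusted p = 1.29e-07, -2.90 relative) and -4.16 ± 0.33 in OPCs (adjusted p = 1.03e-10, -4.01 relative). From 24 to 72 h in RA it was -1.28 ± 0.35 (adjusted p = 0.00459, -0.96 relative). The lower mean of OPCs against RA-treated cells at 72 h was not called (-0.81 ± 0.41, adjusted p = 0.139).

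Dnmt1, the maintenance enzyme that Uhrf1 recruits, had no detected change in RA-treated cells. It was 315 to 484 CPM in the 12 ESC libraries (median 453), 331, 380 and 284 CPM in RA-treated cells at 24 h (same order of lines) and 279, 382 and 371 CPM at 72 h. The RA values overlap those of ESCs at 24 h and lie just below them at 72 h, and neither difference passed the test (log2 -0.27 ± 0.22, adjusted p = 0.287, and -0.44 ± 0.22, adjusted p = 0.0835). OPCs held 110 and 134 CPM with WT-H3.3 and 298 and 382 CPM with H3.3K27M. The log2 change of OPCs against ESCs was -1.01 ± 0.20 (adjusted p = 6.48e-05, -0.86 relative to the median), at the edge of the 2-fold threshold, and was -0.63 under RLE scaling (adjusted p = 0.00475), where it was no longer called. In WT-H3.3 libraries alone it was -1.73. With H3.3K27M the states lie closer, with 391 to 471 CPM in the ESCs at 24 and 72 h against those 298 and 382 CPM in OPCs.

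The de novo enzymes went apart from each other. Dnmt3b was 142 to 244 CPM in the 12 ESC libraries (median 177), 55.9, 41.0 and 64.5 CPM in RA-treated cells (same order of lines) at 24 h and 44.4, 68.1 and 81.6 CPM at 72 h. All RA values lie below all ESC values. In OPCs it was 4.79 and 4.29 CPM with WT-H3.3 and 11.8 and 8.99 CPM with H3.3K27M, below every RA value. The log2 change from ESCs was -1.68 ± 0.27 at 24 h (edgeR adjusted p = 1.47e-05, -1.69 relative to the median), -1.67 ± 0.27 at 72 h (adjusted p = 1.49e-05, -1.52 relative) and -4.71 ± 0.28 in OPCs (adjusted p = 9.72e-13, -4.57 relative). OPCs were also lower than RA-treated cells at 72 h (-3.33 ± 0.39, adjusted p = 1.08e-06), and the change within RA did not pass the test (0.30 ± 0.29, adjusted p = 0.413).

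Dnmt3a, the other de novo enzyme, was 44.0 to 117 CPM in the 12 ESC libraries (median 80.3), with its lowest value in the library of 68378 counts. RA-treated cells (same order of lines) held 144, 155 and 98.5 CPM at 24 h and 102, 118 and 66.5 CPM at 72 h. OPCs held 145 and 147 CPM with WT-H3.3 and 268 and 294 CPM with H3.3K27M. All 4 OPC libraries lie above all 12 ESC libraries, with a log2 change of 1.09 ± 0.14 (adjusted p = 2.58e-07, 1.24 relative to the median), which was 0.65 in WT-H3.3 libraries alone and then not called. RA-treated cells at 24 h were higher than ESCs by less than 2-fold (0.83 ± 0.17, adjusted p = 0.000207), and at 72 h the difference did not pass the test (-0.02 ± 0.18 under TMM and 0.39 under RLE scaling).

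Dnmt3l, the cofactor of both, kept at least 68.0 CPM in RA-treated cells and was nearly absent in OPCs. It was 67.7 to 430 CPM in the 12 ESC libraries (median 280), 103, 68.0 and 113 CPM in RA-treated cells (same order of lines) at 24 h and 163, 140 and 290 CPM at 72 h. The values at 24 h lie below those of the ESCs at 24 h and the values at 72 h lie within those of the ESCs at 72 h. The log2 change from ESCs was -1.37 ± 0.44 at 24 h (edgeR adjusted p = 0.011, -1.39 relative to the median) and -0.27 ± 0.45 at 72 h (adjusted p = 0.602). The change at 72 h was 0.12 under RLE scaling and -1.23 in WT-H3.3 libraries alone, where RA-treated cells had 1 library. Without the RA library of WT-H3.3 or of H3.3K27M at 24 h the adjusted p at 24 h was 0.0637 and 0.0618. The rise from 24 to 72 h in RA missed the threshold (1.16 ± 0.49, adjusted p = 0.0535) and was called under RLE scaling, where it was 1.42. In OPCs Dnmt3l had 22 and 13 counts with WT-H3.3 (1.99 and 1.36 CPM) and 0 counts in both H3.3K27M libraries, where a floor of 3 counts per library corresponds to 0.443 and 0.415 CPM. Against that floor, H3.3K27M ESCs at 24 and 72 h were at least 559-fold higher.

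Among the dioxygenases, Tet1 and Tet2 fell and Tet3 rose. Tet1 was 252 to 601 CPM in the 12 ESC libraries (median 461), 113, 73.5 and 69.9 CPM in RA-treated cells (same order of lines) at 24 h and 21.97, 30.7 and 34.3 CPM at 72 h. The values at 72 h all lie below those at 24 h. OPCs held 6.33 and 8.16 CPM with WT-H3.3 and 31.9 and 25.2 CPM with H3.3K27M, the latter within the range of RA-treated cells at 72 h. The log2 change from ESCs was -2.06 ± 0.38 at 24 h (edgeR adjusted p = 8.06e-05, -2.08 relative to the median), -4.12 ± 0.44 at 72 h (adjusted p = 4.08e-08, -3.96 relative) and -4.62 ± 0.39 in OPCs (adjusted p = 3.31e-10, -4.47 relative). The step from 24 to 72 h in RA was -1.55 ± 0.43 (adjusted p = 0.00437, -1.23 relative).

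Tet2 was 121 to 475 CPM in the 12 ESC libraries (median 203), 55.5, 64.6 and 49.2 CPM in RA-treated cells (same order of lines) at 24 h and 19.4, 28.5 and 18.4 CPM at 72 h. OPCs held 26.9 and 28.3 CPM with WT-H3.3 and 22.3 and 27.1 CPM with H3.3K27M, so that OPCs and RA-treated cells at 72 h overlap (log2 difference 0.43 ± 0.43, adjusted p = 0.483). The log2 change from ESCs was -1.93 ± 0.34 at 24 h (adjusted p = 4.9e-05, -1.95 relative to the median), -3.45 ± 0.39 at 72 h (adjusted p = 8.23e-08, -3.30 relative) and -3.01 ± 0.31 in OPCs (adjusted p = 1.09e-08, -2.86 relative). The step from 24 to 72 h in RA was -1.32 ± 0.39 (adjusted p = 0.0071, -0.996 relative), and without the H3.3K27L library at 72 h it was -1.04 (adjusted p = 0.0577).

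Tet3 was low in ESCs, with 0 to 12.8 CPM in the 12 libraries (median 8.58). It was 136, 131 and 99.8 CPM in RA-treated cells (same order of lines) at 24 h, and 38.4, 44.9 and 31.3 CPM at 72 h. OPCs held 39.4 and 41.0 CPM with WT-H3.3 and 62.7 and 49.4 CPM with H3.3K27M. Every differentiated library lies above every ESC library, and the 24 h RA libraries lie above all others. The log2 change from ESCs was 3.91 ± 0.24 at 24 h (edgeR adjusted p = 1.36e-11, 3.89 relative to the median), 1.96 ± 0.26 at 72 h (adjusted p = 7.78e-07, 2.11 relative) and 2.31 ± 0.20 in OPCs (adjusted p = 3.96e-10, 2.46 relative). From 24 to 72 h in RA it fell by 1.63 ± 0.28 on the log2 scale (adjusted p = 5.73e-05, -1.31 relative), and OPCs did not differ detectably from RA-treated cells at 72 h (0.12 ± 0.32, adjusted p = 0.835).

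**Figure D2:**
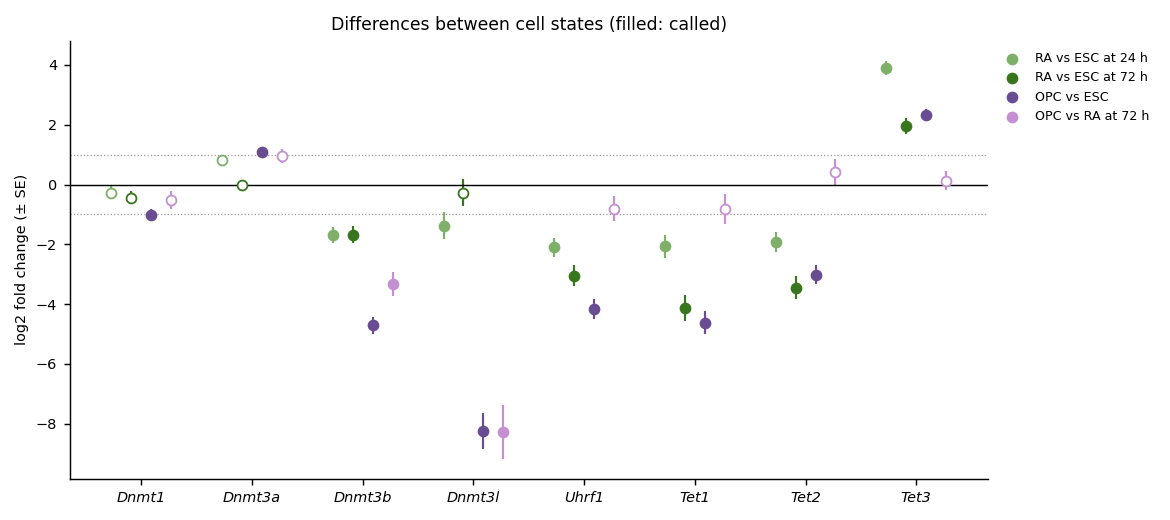
Points give the edgeR log2 fold change and bars its SE for each gene (x axis) in 4 comparisons of cell states, filled where the gene was called, with dotted lines at 2-fold. Tet3 lies above 0 in the 3 comparisons with ESCs, Dnmt3b, Uhrf1, Tet1 and Tet2 lie below, and Dnmt3l is near 0 at 72 h of RA and lowest in OPCs, where it rests on few counts.

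The order of the levels followed from these tests. Uhrf1, Tet1 and Tet2 ran from ESCs over RA at 24 h to RA at 72 h, and their neighbours RA at 72 h and OPCs did not differ beyond the spread. Dnmt3b ran from ESCs to RA to OPCs, with no detected step between the RA times. Tet3 ran from RA at 24 h over RA at 72 h and OPCs, which did not differ detectably, to ESCs. Dnmt3a was highest in OPCs, above RA at 72 h by a log2 of 0.96 ± 0.22 (adjusted p = 0.00208, under 2-fold). With WT-H3.3 libraries alone, OPCs and RA-treated cells had 1 library each at 72 h. The log2 difference of OPCs from RA-treated cells was then -1.08 in Dnmt1, -1.98 in Uhrf1 and -1.45 in Tet1. Leaving out the H3.3K27M library of OPCs at 72 h kept that 1 WT-H3.3 library of OPCs, and gave -1.14, -1.89 and -1.73. With 1 library in a group these are effect sizes only.

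A list of 37 other genes of the pathway was read beside the members. Between RA-treated cells and ESCs at 72 h, 5 were called higher and 20 lower of 37 tested (median log2 change -1.04, all genes -0.16). Of all genes 26.5% were called higher and 30.6% lower there. At 24 h 7 were called higher and 11 lower (median -0.19, all genes 0.01), against 23.3% and 18.8% of all genes. Between OPCs and ESCs 4 were higher and 21 lower (median -1.25, all genes -0.15), against 31.1% and 36.1%. In RA from 24 to 72 h 3 were higher and 12 lower (median -0.43, all genes -0.32), against 14.1% and 24.6%. Between OPCs and RA at 72 h 4 were lower and none higher (median -0.28, all genes 0.01), against 13.7% lower and 13.6% higher. Among 9 imprint and targeting factors 7 were called lower in RA-treated cells at 72 h and 7 in OPCs, none higher.

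The factors named by the lowest adjusted p show what kinds of genes these are. Zfp57, a zinc finger protein that keeps methylation at imprinted regions, was 1.33 ± 0.442 CPM (SD, n = 3) in RA at 72 h against 450.0 ± 49.9 CPM (n = 6) in ESCs at that time (log2 -8.37 ± 0.38, edgeR adjusted p = 9.86e-14). In OPCs it was 0.640 ± 0.367 CPM (n = 4) against 414.5 ± 93.8 CPM in the 12 ESC libraries (-9.34 ± 0.33, adjusted p = 1.37e-16). Setdb1, a histone H3 lysine 9 methyltransferase that works with such zinc finger proteins, was lower in RA at 72 h (-2.51 ± 0.17, adjusted p = 3.97e-11) and in OPCs (-2.98 ± 0.15, adjusted p = 4.09e-14). Tdg, the glycosylase that excises TET products, was 46.6 ± 14.8 CPM in ESCs and 2.47 ± 0.28 CPM in OPCs (-4.18 ± 0.22, adjusted p = 1.63e-13), and was lower in RA at 72 h as well (-3.78 ± 0.28, adjusted p = 1.76e-10). Smug1, another glycosylase of base excision repair, went the other way in RA at 72 h, with 64.2 ± 19.5 CPM (n = 3) against 18.8 ± 9.48 CPM (n = 6) in ESCs (1.55 ± 0.20, adjusted p = 7.56e-07).

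Within the differentiated cells, Zbtb33, a reader also known as Kaiso, was 1.45 ± 0.951 CPM in RA at 72 h against 34.4 ± 6.20 CPM at 24 h (SD, n = 3 each, log2 -4.52 ± 0.34, edgeR adjusted p = 6.81e-10). Mbd4, a glycosylase that acts at mismatched CpG, was lower in OPCs than in RA-treated cells at 72 h (6.87 ± 2.02 CPM, n = 2, against 18.4 ± 1.80 CPM, n = 3, -1.34 ± 0.28, adjusted p = 0.000867).

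Prdm14, a repressor of de novo methyltransferase genes in ESCs, and Dppa3, which keeps UHRF1 from chromatin, were lower in RA at 24 h, with 41.2 ± 8.50 CPM in ESCs against 0.131 ± 0.228 CPM for Prdm14 and 25.9 ± 15.3 against 0.123 ± 0.107 CPM for Dppa3 (SD, n = 6 and 3, adjusted p = 2.66e-10 and 5.34e-08). Fewer were higher. Cxxc4, known as an antagonist of TET2, rose from 0.194 ± 0.163 CPM in ESCs to 8.93 ± 1.51 CPM in OPCs (5.24 ± 0.36, adjusted p = 9.98e-12) and to 8.05 ± 2.25 CPM in RA at 24 h (5.24 ± 0.46, adjusted p = 3.72e-09). Zbtb4, a reader of methylated CpG, rose in OPCs (2.55 ± 0.22, adjusted p = 4.1e-10) and in RA at 24 h (2.29 ± 0.26, adjusted p = 1.59e-07), and Mbd2, another reader, in RA at 24 h (1.36 ± 0.17, adjusted p = 6.57e-07). Uhrf2, the paralog of Uhrf1, went the other way from it, with 240 ± 49.6 CPM in RA at 72 h against 68.9 ± 10.8 CPM in ESCs (1.81 ± 0.16, adjusted p = 2.52e-09) and 134 ± 16.7 CPM in OPCs (1.01 ± 0.13, adjusted p = 2.62e-07).

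Whether H3.3K27M changed these genes was next asked in OPCs, where 2 libraries of H3.3K27M (24 and 72 h) were compared with 2 of WT-H3.3. Of the 7 members with counts in both lines, edgeR called 4, all higher, where 28.0% of all 12511 genes were called (13.0% higher, 15.0% lower). At an adjusted p under 0.05 alone 6 of the 7 differed, all but Tet2, where 51.5% of all genes did. Dnmt3l, with 0 counts in H3.3K27M, is left out of these counts. Uhrf1 was 74.6 and 89.4 CPM with H3.3K27M and 18.4 and 21.7 CPM with WT-H3.3 (log2 2.02 ± 0.17, adjusted p = 3.93e-06). Tet1 was 31.9 and 25.2 CPM against 6.33 and 8.16 CPM (1.97 ± 0.23, adjusted p = 4.23e-05). Dnmt1 was 298 and 382 CPM against 110 and 134 CPM (1.46 ± 0.16, adjusted p = 2.94e-05). These 3 genes were the most raised members, at 2.75-fold to 4.05-fold.

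Dnmt3b was 11.8 and 8.99 CPM with H3.3K27M against 4.79 and 4.29 CPM with WT-H3.3 (log2 1.18 ± 0.27, adjusted p = 0.00427), and without the H3.3K27M library at 24 h it was 0.96 and under 2-fold. Dnmt3a was 268 and 294 CPM against 145 and 147 CPM, higher by 1.91-fold (0.93 ± 0.13, adjusted p = 0.000121). Tet3 was 62.7 and 49.4 CPM against 39.4 and 41.0 CPM (0.46 ± 0.16, adjusted p = 0.0344), also under 2-fold, and Tet2 was 22.3 and 27.1 CPM against 26.9 and 28.3 CPM (-0.17 ± 0.18, adjusted p = 0.451). Dnmt3l passed the filter on low counts only through WT-H3.3, with 22 and 13 counts against 0 and 0, so that H3.3K27M was at least 3.90-fold lower against the floor, given as a description.

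Of 6 partners of maintenance methylation, 4 were called higher with H3.3K27M in these OPCs and none lower (median log2 change 1.45, all genes 0.00), and the other 2 did not pass the test. Cdca7 and Hells, which form a remodeller needed for methylation of heterochromatin, were 77.6 ± 5.07 against 15.9 ± 1.503 CPM (SD, n = 2 each, log2 2.27 ± 0.16, adjusted p = 1.33e-06) and 125 ± 11.8 against 48.9 ± 0.857 CPM (1.34 ± 0.14, adjusted p = 1.67e-05). Lig1, the replicative DNA ligase, whose methylated form binds UHRF1, was 687 ± 22.1 against 230 ± 16.8 CPM (1.56 ± 0.13, adjusted p = 4.5e-06). Of the whole list of 37, 33 were tested, 7 were called higher and 2 lower (median 0.29), where 13.0% of all genes were called higher and 15.0% lower. The lower genes were Gadd45b and Gadd45a, stress genes linked to DNA demethylation, at 6.70 ± 2.23 against 116 ± 10.9 CPM (-4.12 ± 0.21, adjusted p = 2.01e-07) and 6.12 ± 1.13 against 16.1 ± 2.49 CPM (-1.41 ± 0.25, adjusted p = 0.000861).

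Other features of these OPC libraries moved with the same contrast. All 8 dividing-cell markers were called higher with H3.3K27M (median log2 change 1.61), and their summed level was 2823 to 2933 CPM against 781.9 to 944.8 CPM with WT-H3.3. The summed level of 5 fibroblast markers was 23.66 to 26.01 CPM against 503 to 535 CPM, with Col1a1 at 2.49 to 4.58 against 166 to 170 CPM. Of 5 OPC markers 3 were called higher and 2 lower. Olig1 was 610 to 706 against 158 to 169 CPM and Olig2 1024 to 1064 against 281 to 342 CPM, and Pdgfra was 0.591 to 0.830 against 16.1 to 23.8 CPM. Of 5 astrocyte markers 3 were called lower (Gfap, Aqp4 and Aldh1l1, with Gfap at 0.00 to 0.296 against 24.4 to 34.7 CPM), and S100b and Slc1a3 were higher by less than 2-fold (27.2 to 35.7 against at most 21.0 CPM and 899 to 1233 against 771 to 775 CPM). Slc1a3 holds most of the summed astrocyte level, which was 935 to 1279 against 854 to 868 CPM. Of 4 neural progenitor markers tested, 3 were called higher and 0 lower (summed level 1443 to 1755 against 629 to 746 CPM). Neuron markers split, with 2 called higher and 2 lower of 4 tested, and all 4 extraembryonic endoderm markers tested were called lower. The part of cell composition and of division in the members' differences was not tested, and with 1 library per line and time the line and the culture cannot be told apart. The labels do not say whether the 24 and 72 h libraries of a line came from separate cultures. For the 72 h libraries they disagree on the replicate number (1 or 2). If a line was 1 culture, the SDs and p-values leave out the spread between cultures.

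**Figure D3:**
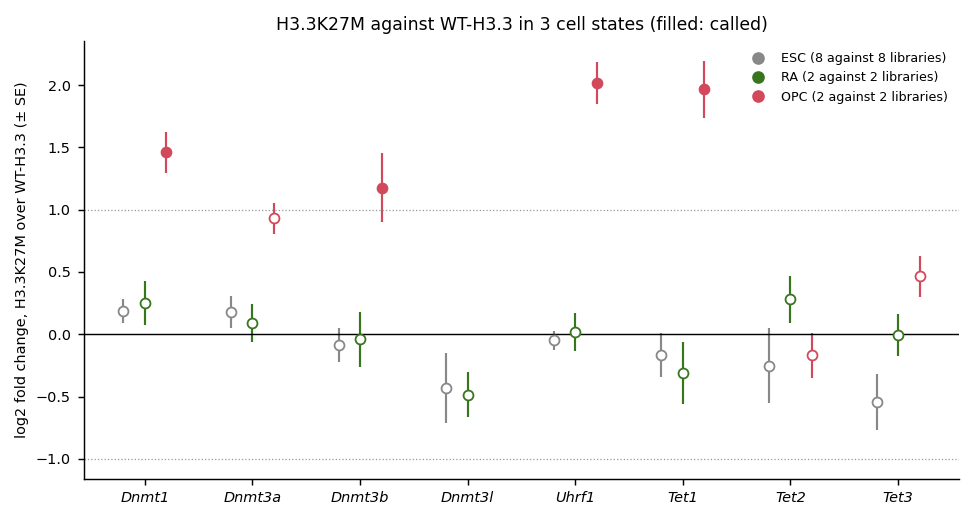
Points give the edgeR log2 fold change of H3.3K27M over WT-H3.3 and bars its SE for each gene (x axis) in ESCs (8 against 8 libraries), RA-treated cells and OPCs (2 against 2 each), filled where called, with dotted lines at 2-fold. The OPC points of Uhrf1, Tet1, Dnmt1 and Dnmt3b lie above 2-fold and those of ESCs and RA-treated cells lie within 2-fold of 0. Dnmt3l in OPCs, with 0 counts in H3.3K27M, is left out.

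The difference between these effects was tested directly, in a fit of the 22 libraries at 24 and 72 h with an effect of each line in each state. The effect of H3.3K27M differed between OPCs and ESCs at an adjusted p under 0.05 for 5 of the 7 members with counts in both OPC lines, where 20.0% of all genes did. The difference of the log2 effects (OPC minus ESC) was 2.19 ± 0.39 for Tet1 (adjusted p = 0.0002), 2.10 ± 0.26 for Uhrf1 (adjusted p = 2e-06), 1.32 ± 0.25 for Dnmt1 (adjusted p = 0.000377), 1.24 ± 0.34 for Dnmt3b (adjusted p = 0.0105) and 0.82 ± 0.23 for Dnmt3a (adjusted p = 0.011). For Dnmt3l, left out of that count for its 0 counts, the adjusted p was 0.0437, and 0.0642 without the library of 68378 counts. For Tet2 and Tet3 the test was not passed (adjusted p = 1 and 0.0886). Between RA-treated cells and ESCs no member had a detectably different effect of H3.3K27M (0 of 8 at an adjusted p under 0.05, 0.00% of all genes). At an unadjusted p under 0.05 there were 0 of 8 members and 713 of 15923 genes.

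In ESCs the lines were compared over all 4 Dox times in 1 fit of the 32 libraries that kept groups and times apart. Between H3.3K27M and WT-H3.3 edgeR called 0 of 8 members and DESeq2 called 0, where 0.0142% of 14076 genes were called (2 genes). With the replicate number as a block 24 genes were called, and no member was called in either. An unadjusted p under 0.05 was found by edgeR for 1 member (Tet3) and for 1612 of all genes. Dnmt1 was 307 to 483 CPM (median 372, n = 8) with WT-H3.3 and 345 to 488 CPM (median 445) with H3.3K27M, and the log2 difference was 0.18 ± 0.10 (adjusted p = 0.488). Uhrf1, at 786 to 926 CPM (median 880) and 656 to 927 CPM (median 858), differed by less (-0.05 ± 0.08, adjusted p = 0.825). Dnmt3l was 268 to 490 CPM (median 352) with WT-H3.3 and 144 to 460 CPM (median 256) with H3.3K27M (-0.43 ± 0.28, adjusted p = 0.575). The other 5 members differed by log2 values between -0.54 and 0.18 and none passed the test.

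GSK343 likewise gave 0 of 8 members called by edgeR and by DESeq2, where 0.00% of genes were called. An unadjusted p under 0.05 was found by edgeR for 2 members (Tet1 and Tet2) and for 621 of 14076 genes. Tet2 was 97.0 to 236 CPM (median 113) with GSK343 against 121 to 481 CPM (median 223) in WT-H3.3 without it (log2 -0.81 ± 0.30, adjusted p = 0.975), and Tet1 was 196 to 622 CPM (median 281) against 243 to 623 CPM (median 445; -0.43 ± 0.18, adjusted p = 0.975). In both genes the ranges overlap. Against WT-H3.3 replicate 1 alone, the difference of Tet2 in GSK343 replicate 1 was -0.09 ± 0.13 (SD over 4 times, log2(CPM + 0.5)), and against WT-H3.3 replicate 2 that of GSK343 replicate 2 was -1.33 ± 0.88, so the value depends on the WT-H3.3 replicate.

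H3.3K27L differed from WT-H3.3 in 2 members. Dnmt3l was called lower (log2 -1.16 ± 0.30, edgeR adjusted p = 0.0171), 1 of 8 members where 3.46% of genes were called (2.83% lower), with 67.7 to 334 CPM (median 169) against 268 to 490 CPM (median 352). Dnmt3a, the other member with an adjusted p under 0.05 (8.11% of genes had one), was lower by less than 2-fold, with 34.9 to 67.0 CPM (median 51.2) against 56.0 to 115 CPM (median 74.1; -0.56 ± 0.13, adjusted p = 0.00993). For Dnmt3l 6 of 8 H3.3K27L libraries lie below all WT-H3.3 libraries and for Dnmt3a 5 of 8 do. H3.3K27M exceeded H3.3K27L in Dnmt3a as well (0.74 ± 0.14, adjusted p = 0.000975, under 2-fold, 11.1% of genes at an adjusted p under 0.05), with 7 of 8 libraries above all of H3.3K27L. In that comparison edgeR and DESeq2 called 0 of 8 members, where 3.82% of genes were called. An unadjusted p under 0.05 was found by edgeR for 4 members and for 3456 of 14076 genes. Of the other pathway genes, Dppa3 was called between H3.3K27M and H3.3K27L (30.8 ± 7.70 against 11.5 ± 8.23 CPM, SD, n = 8 each, log2 1.47 ± 0.35, edgeR adjusted p = 0.008).

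The replicate numbers carry much of the spread of Dnmt3l and Tet2 in ESCs. The ESC fit had no term for replicate number, so the 4 times of a number entered it as separate libraries. Its p-values do not account for a spread shared within a number. In H3.3K27L the 4 libraries of replicate 1 held 67.7 to 132 CPM of Dnmt3l and 392 to 640 CPM of Tet2, and those of replicate 2 held 205 to 334 and 139 to 323 CPM. In H3.3K27M it was replicate 2 that was low in Dnmt3l (144 to 218 CPM against 295 to 460 CPM), and in WT-H3.3 it was replicate 2 that was high in Tet2 (247 to 481 CPM against 121 to 199 CPM). Within replicate numbers, the log2 difference of H3.3K27L from WT-H3.3 in Dnmt3l was -2.11 ± 0.61 (SD over 4 times) for number 1 and -0.23 ± 0.39 for number 2, and in Dnmt3a -0.86 ± 0.18 and -0.41 ± 0.65, the latter -0.09 without the library of 68378 counts. The numbers of these lines went against each other at 4, 8 and 24 h (correlations of replicate differences of -0.60 to -0.71), so the other numbers were set against each other too. H3.3K27L replicate 2 against WT-H3.3 replicate 1 gave -0.61 ± 0.34 in Dnmt3l and -0.53 ± 0.56 in Dnmt3a, lower at 4 of 4 times in both. Without the library of 68378 counts these were -0.45 and -0.25, and the value of Dnmt3l within number 2 was -0.06. H3.3K27L replicate 1 against WT-H3.3 replicate 2 gave -1.74 ± 0.49 and -0.74 ± 0.07. With the H3.3K27L numbers exchanged in the replicate block, Dnmt3l was -1.22. This alternative was chosen after seeing the data, from these same counts, so its p-value is not given. The exchange was also made at 72 h, where the correlation was 0.26. The call of Dnmt3l was lost without H3.3K27L replicate 1 at 72 h (-0.88, adjusted p = 0.226), when only the compared libraries were in the fit (adjusted p = 0.0525) and at 24 and 72 h alone (-1.43, adjusted p = 0.171). It stood without the library of 68378 counts (-1.25, adjusted p = 0.013).

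**Figure D4:**
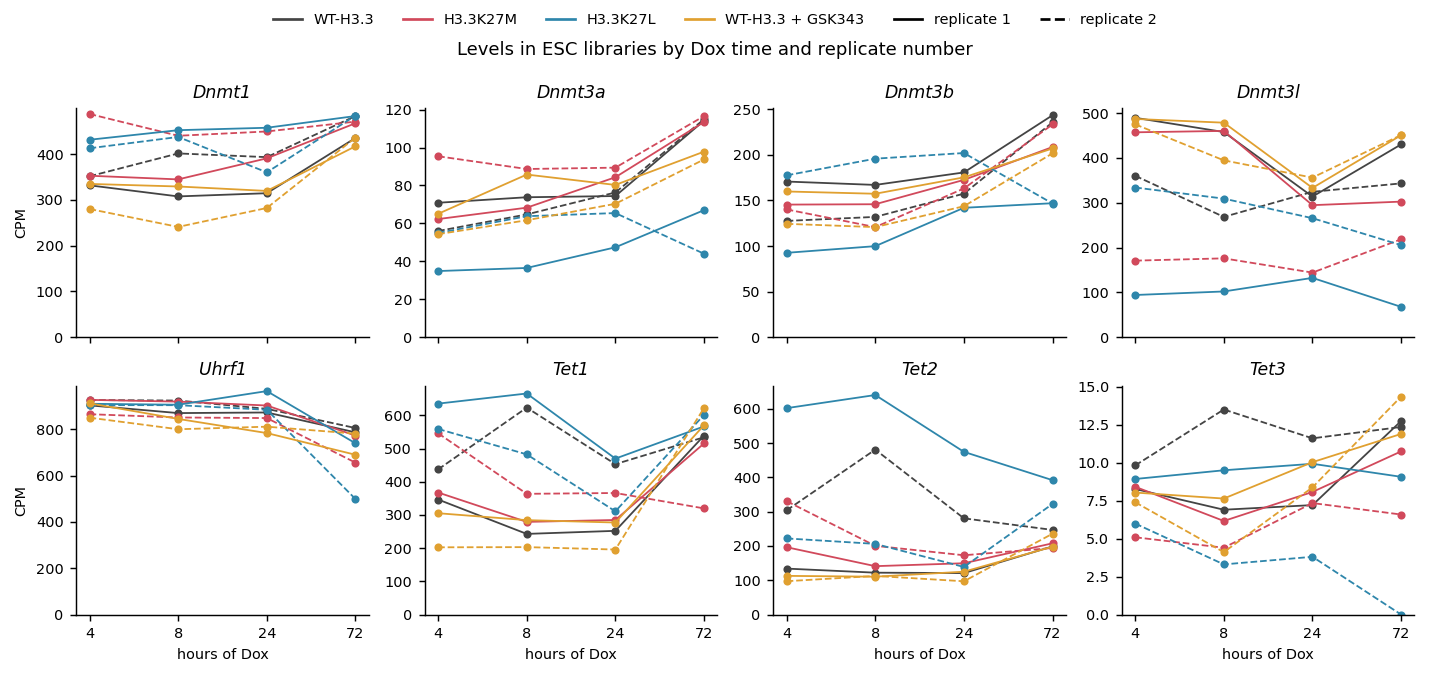
Each panel shows the CPM of 1 gene in the 32 ESC libraries against the hours of Dox (spaced evenly), with colours for the line or treatment, solid lines for replicate 1 and dashed lines for replicate 2. Dnmt3l and Tet2 separate by replicate number within a line, Dnmt3a and Dnmt3b rise at 72 h, and Uhrf1 is lower at 72 h, with the library of 68378 counts as the lowest point.

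Time in Dox culture went with small changes common to the ESC groups. Between 72 and 4 h, averaged over the 4 groups, 4 members had an adjusted p under 0.05 and 0 of them passed 2-fold, by edgeR and by DESeq2, where 4.01% of genes were called and 25.7% had an adjusted p under 0.05. Dnmt3a was 44.0 to 117 CPM (median 106, n = 8) at 72 h against 34.9 to 95.4 CPM (median 59.1) at 4 h (log2 0.64 ± 0.13, adjusted p = 0.00245). Dnmt3b was 147 to 244 CPM (median 208) against 92.6 to 178 CPM (median 143; 0.48 ± 0.14, adjusted p = 0.0168), and Dnmt1 417 to 484 CPM (median 469) against 280 to 488 CPM (median 352; 0.31 ± 0.10, adjusted p = 0.0281). Uhrf1 went the other way, with 499 to 805 CPM (median 756) at 72 h and 850 to 927 CPM (median 907) at 4 h (-0.32 ± 0.08, adjusted p = 0.00638). Genes of the longest tertile had a median log2 change of 0.22 in this comparison and those of the shortest -0.23, and the part of length was not tested. The change of the line effects with time (24 and 72 h against 4 and 8 h) passed for 0 of 8 members for H3.3K27M, for H3.3K27L and for GSK343 by edgeR and DESeq2, where 0.00% of genes were called. At an unadjusted p under 0.05 by edgeR there were 0 of 8 members in each, and 82, 183 and 107 of 14076 genes in the same order.

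In RA-treated cells, with 2 libraries per line (24 and 72 h) and Dox time as a term, edgeR and DESeq2 called no member. H3.3K27M against WT-H3.3 gave 0 of 8, where 0.0163% of 12265 genes were called. H3.3K27L against WT-H3.3 gave 0 of 8 (3.68% of genes called and 7.03% at an adjusted p under 0.05). H3.3K27M against H3.3K27L gave 0 of 8 (6.71% of genes called and 12.6% at an adjusted p under 0.05). In the same order 1, 3 and 5 members had an unadjusted p under 0.05 by edgeR, as did 755, 2639 and 3071 genes. Dnmt3a was again lowest in H3.3K27L, at 98.5 CPM (24 h) and 66.5 CPM (72 h) against 144 and 102 CPM with WT-H3.3 and 155 and 118 CPM with H3.3K27M (log2 -0.61 ± 0.16, adjusted p = 0.0379, against WT-H3.3, and 0.70 ± 0.16, adjusted p = 0.0117, for H3.3K27M against H3.3K27L). Dnmt3l was highest in H3.3K27L, at 113 and 290 CPM against 103 and 163 CPM with WT-H3.3 and 68.0 and 140 CPM with H3.3K27M. H3.3K27M was below H3.3K27L (-0.93 ± 0.18, edgeR adjusted p = 0.00522, under 2-fold). H3.3K27L against WT-H3.3 did not pass the test (0.45 ± 0.18, adjusted p = 0.17). Cell type markers differed in the same comparisons. Of 5 extraembryonic endoderm markers, 4 were called higher in H3.3K27L than in WT-H3.3 (median log2 difference 1.04), and 5 were called lower in H3.3K27M than in H3.3K27L (-1.72). Of 3 neural progenitor markers tested, 1 was called lower in H3.3K27L than in WT-H3.3 and 2 were called higher in H3.3K27M than in H3.3K27L. Their part in the members' differences was not tested. With both Dox times pooled, no gene was called in these comparisons. The effect of H3.3K27L on Dnmt3l in RA minus that in ESCs was 1.68 ± 0.49 and did not pass after adjustment (adjusted p = 0.164), nor did that on Dnmt3a (0.02 ± 0.24, adjusted p = 1).

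As a description of likeness, Pearson's r of log2(mean CPM + 0.5) was taken over 26 means (state, line or treatment, and time) among 11646 genes, whose points share libraries, depth and kit. Uhrf1 and Tet1 were the most alike pair of members (r = 0.97), followed by Tet1 and Tet2 (0.94), Dnmt3b and Dnmt3l (0.92) and Dnmt3b and Uhrf1 (0.91). Dnmt3a and Tet3 went with each other (0.73) and against the rest, with -0.79 between Dnmt3a and Dnmt3l and between Tet2 and Tet3 at the extreme. The genes most like each member were Trim28, Mybl2 and H2az1 for Uhrf1 (0.99 each), Suz12, Dcaf1 and Ticrr for Tet1 (0.99 each), Kif15, Cit and Plk4 for Dnmt1 (0.91 to 0.94), and Orc1, Hk2 and Prr23a3 for Dnmt3b (0.97 to 0.98). For Dnmt3l they were Trim6, Epcam and 2410003L11Rik (0.98 each), for Tet2 Rest and Usp7 (0.98 and 0.97), for Tet3 Fras1, Zfp362 and Jak2 (0.97 to 0.98) and for Dnmt3a Septin3, Fam172a and Dennd2a (0.93 to 0.95). Most of these means are ESCs.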

How the data were processed

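RNA was sequenced from 42 libraries of 155 samples in the series (32 ESC, 6 RA and 4 OPC); the other samples are not used here. The authors aligned single-end reads to mm9 with STAR 2.7.1 and deposited raw read counts per gene for 55471 Ensembl genes, without normalization. The counter and the kit of each library are not given in the sources used here. Groups came from the labels.

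Counts were tested with edgeR 4.0.16 (quasi-likelihood, TMM scaling, filterByExpr, Benjamini-Hochberg adjustment over all genes tested). Chromosome 8 was left out (1435 genes, 5.78% of counts), and 22882 genes with 1.83% of counts had no position in the NCBIM37 annotation. ESC fits held all 32 libraries with a mean per group and time. State fits held 22 libraries with a mean per state and time and a term for line, RA fits had terms for line and time, and the OPC fit had line only. DESeq2 1.42.0 was an alternative, and the code was tested on simulated counts. CPM are TMM-scaled and not divided by length. Precision is set by the counts, from 68378 per library, and by 2 libraries or fewer per line and time. The labels do not say that replicates were separate derivations, so p-values measure the spread between these libraries.

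The replicate numbers paired WT-H3.3 and H3.3K27M ESCs (correlations of replicate differences over 8528 genes of 0.61 to 0.71 at the 4 times), and WT-H3.3 and H3.3K27L gave -0.71 to 0.26. No libraries were copies (lowest chi-square per gene 1.87). Promoter sequences are from RefSeq on GRCm38.p6, and all 8 members had one. The members and gene lists were chosen with earlier results of these data known. Named genes outside the members were at most the 3 with the lowest adjusted p in each direction among called pathway genes. A gene that the naming rules gave is not reported here.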

Additional observations from a re-analysis of the deposited data

Results flagged for a closer look

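In 3 of 48 gene-and-group sets of 4 to 10 libraries, 1 library lay far from the others, where chance gives about 1 in 20. Tet2 in H3.3K27M ESCs was 330.7 CPM in replicate 2 at 4 h, with the other 7 libraries between 141.1 and 207.8 CPM. Dnmt1 in ESCs at 72 h without GSK343 was 435.2 CPM in WT-H3.3 replicate 1, with the others between 467.4 and 484.0 CPM. Tet1 in the same ESCs was 319.7 CPM in H3.3K27M replicate 2, with the others between 515.4 and 601.4 CPM.

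The effect of H3.3K27M differed between OPCs and ESCs in the edgeR interaction test for 5 of the 7 members with counts in both OPC lines, where 20.0% of all genes did. The OPC effect exceeded the ESC effect by a log2 of 2.19 in Tet1, 2.10 in Uhrf1, 1.32 in Dnmt1, 1.24 in Dnmt3b and 0.82 in Dnmt3a. In Dnmt3l H3.3K27M OPCs had 0 counts, so its fitted difference (-6.15 ± 2.14, adjusted p = 0.0437, and 0.0642 without the library of 68378 counts) is neither a size nor a bound. Dividing-cell, fibroblast and other cell type markers differed between the same OPC libraries, and their part in these values was not tested.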

How the results depend on the processing

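Of 3511 member values recomputed under alternatives, 3442 kept their direction and side of the threshold, 21 lost a call, 43 gained one and 5 changed sign. A value within 1 SE of 0 in the main fit was given no direction. The recomputed value could itself lie near 0, so a change of sign is not by itself a difference in the other direction. The 5 were Tet1 at 72 against 4 h (-0.32 for 24 against 4 h), Tet3 at 72 against 4 h (-1.84 to 0.56 leaving out 1 library, lowest without H3.3K27L replicate 1 at 72 h), Tet1 in RA H3.3K27M against WT-H3.3 (-0.74 to 0.48, highest without the WT-H3.3 library at 24 h), Dnmt1 in RA H3.3K27M against H3.3K27L (-0.034 to 0.42, lowest without the H3.3K27L library at 24 h) and Dnmt3b in RA at 72 against 24 h (-0.31 in WT-H3.3 libraries alone). None of these was called, and the cause was not tested.

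Without the fold threshold the members counted were 2 for ESC H3.3K27L against WT-H3.3, 1 for H3.3K27M against H3.3K27L, 4 for 72 against 4 h, 1 for RA H3.3K27L against WT-H3.3 and 2 for RA H3.3K27M against H3.3K27L. ESC H3.3K27L against WT-H3.3 gave 0 with only the compared libraries and 0 at 24 and 72 h alone (fewer libraries in both). Leaving out 1 library at a time gave 0 to 2 members for ESC H3.3K27L against WT-H3.3 (2 without WT-H3.3 replicate 2 at 8 h, adding Tet2). It gave 0 to 2 for ESC H3.3K27M against H3.3K27L, 5 to 6 for RA against ESC at 24 h, 3 to 5 for RA at 72 against 24 h and 7 to 8 for OPC against ESC. OPC H3.3K27M against WT-H3.3 called 5 in the fit as reported, with Dnmt3l counted. For lines within RA or OPC, and for OPC against RA, this can leave 1 library in a group, so no count is given.

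Counts over all genes moved more. ESC H3.3K27L against WT-H3.3 called 487 genes, 769 without the low-count filter, 1142 without the fold threshold, 120 without H3.3K27L replicate 1 at 72 h and 77 at 24 and 72 h alone. H3.3K27M against H3.3K27L called 538, 1556 without the fold threshold, 194 without that library, 318 with only the compared libraries and 92 at 24 and 72 h alone. ESC 72 against 4 h called 564, 3612 without the fold threshold, 374 to 858 leaving out 1 library and 68 at 24 against 4 h. RA H3.3K27L against WT-H3.3 called 451, 862 without the fold threshold, 933 without the WT-H3.3 library at 24 h and 0 with times pooled, and RA H3.3K27M against H3.3K27L called 823, 1541, 194 (without the H3.3K27M library at 24 h) and 0. OPC H3.3K27M against WT-H3.3 called 3501, or 6448 without the fold threshold. H3.3K27M against WT-H3.3 called 2 in ESCs and 2 in RA, or 159 and 79 without the low-count filter, 4 and 17 by DESeq2, 0 in ESCs with only the compared libraries, and 0 to 133 in ESCs and 0 to 181 in RA leaving out 1 library.

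The share called higher moved with scaling. RA against ESC at 72 h called 4213 higher and 4879 lower by TMM, 5210 and 3828 by RLE and 4953 and 3730 by DESeq2. RA at 72 against 24 h called 2241 and 3916, 2947 and 2975, and 2764 and 2762. OPC against RA called 2165 and 2188, or 1701 and 2689 by library totals.

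With the replicate number as a block, ESC H3.3K27M against WT-H3.3 called 24 genes in place of 2, H3.3K27L against WT-H3.3 called 554, and Dnmt3l in the latter was -1.15 (adjusted p = 0.0202). With the H3.3K27L numbers exchanged, an alternative chosen after seeing the data, the counts were 13 and 522. The block changed no call of a member. RA libraries all carry number 1, so no block could be fitted in them alone. With 68378 counts in the lowest library, Tet3 could not be measured in it.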
